A study of Mus musculus with 2 samples.

Results

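The 10 genes described here encode transcription factors that specify blood cells other than T cells, in a map of accessible chromatin of regulatory T (Treg) cells. They were Pax5, Ebf1, Spi1, Spib, Cebpa, Cebpb, Gata1, Tal1, Klf1 and Zbtb46, out of 21853 protein-coding genes with an annotated protein-coding transcript start. The choice was made by their known roles, with earlier results of these data known. A region was taken for a gene if it lay in the gene body or within 5 kb of it, or if its nearest protein-coding start, at most 100 kb away, belonged to the gene. By this rule 22 of the 29415 regions in the main list lay at 8 of the 10 genes, and Spib and Gata1 had none.

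Open chromatin was mapped by ATAC-seq, which uses Tn5 transposase to tag accessible DNA, in primary cells that the labels call inflammation-experienced Treg cells. They came from an adult male mouse of 6 months carrying Foxp3CreERT2, a tamoxifen-dependent Cre recombinase driven from the Foxp3 gene, together with Rosa26YFP, a yellow fluorescent Cre reporter. The labels trace the cells back to hematopoietic cells of bone marrow and name neither the inflammation nor the sort. The 2 libraries are technical replicates of 1 biological replicate and make up 1 group, so there was no comparison between conditions, no replicate error and no test. All coordinates are on mm10 with GENCODE M21.

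Blood lineages are set by small groups of transcription factors that switch on the genes of their own lineage and restrain those of others. Ebf1 and Pax5 set and hold B cell identity, PU.1 (encoded by Spi1) and C/EBP factors drive granulocytes and macrophages, and Gata1, Tal1 and Klf1 work together in red cell precursors. In committed T cells several of these genes are known to be silenced, and their forced expression can divert T cell precursors into other lineages.

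The deposited lists pool the 2 libraries, and each region has a fold enrichment, a linear ratio of signal over a background that is not stated, and a −log10 p, both from the authors' peak caller. The main list holds peaks that passed a cut on the irreproducible discovery rate (IDR), which compares peak ranks between 2 sets of reads. A longer pseudoreplicated list holds weaker regions too. In a bulk map a region that is weakly open in all cells cannot be told apart from a region that is open in a few of them. Marker genes were counted in the main list. Among those of the labelled cell type, 5 of 6 (Cd3e, Foxp3, Il2ra, Ctla4 and Ikzf2, but not Cd4) had a promoter region. Each of the 6 had 1 to 16 regions, and at 4 of 6 a region covered an annotated start. A promoter region, here and below, is a region that overlaps the 1000 bp on either side of a protein-coding transcript start. In the main list 49.7% of all protein-coding genes had a promoter region. No promoter region lay at the B cell markers (0 of 3), the myeloid markers (0 of 3) or the dendritic cell markers (0 of 3), and the erythroid markers had it at 1 of 3, Epor. The myeloid markers Csf1r, Lyz2 and Cd14 had 0 regions of any kind in the main list, but Cd14 had 2 in the pseudoreplicated list. In that longer list a promoter region lay at 6 of 6 T cell, 1 of 3 myeloid and 2 of 3 erythroid markers, against 55.3% of all genes. The B cell and dendritic cell markers had it at 0 of 3 each. Some markers of the other cell types had regions away from their promoters, namely Cd79a with 3, Xcr1 and Alas2 with 2 each and Flt3 with 1.

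In the main list 5 of 10 genes, Pax5, Spi1, Cebpa, Cebpb and Klf1, had a promoter region, against 49.7% of all protein-coding genes. The region covered an annotated start at 2 of 10, Cebpa and Cebpb, against 47.3% of all genes. At the other 3 it overlapped the window and left every start uncovered. At least 1 region of any kind was found at 8 of 10 lineage factors and at 63.2% of all genes. The lineage factors had a median of 2 and a mean of 2.2 regions, against a median of 1 and a mean of 1.63 over all genes, whose 75th percentile was 2.

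Most of the 22 regions lay away from promoters. By their summits, 5 were promoter regions of some gene (22.7%, 95% Clopper-Pearson interval 7.82% to 45.4%, counting error only), against 36.7% of the whole list. Another 5 lay in introns, 3 in exons and 9 between genes. The interval treats the regions as independent, although 7 of the 22 lay at Cebpb, so it may be too narrow. Of the 22 regions, 18 were assigned to the lineage factor by the nearest start. The other 4 counted for their place in or near the gene body: an Ebf1 intron region more than 100 kb from any start, and regions closest to the starts of Pdzk1ip1, Dnase2a and Lime1.

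**Figure D1:**
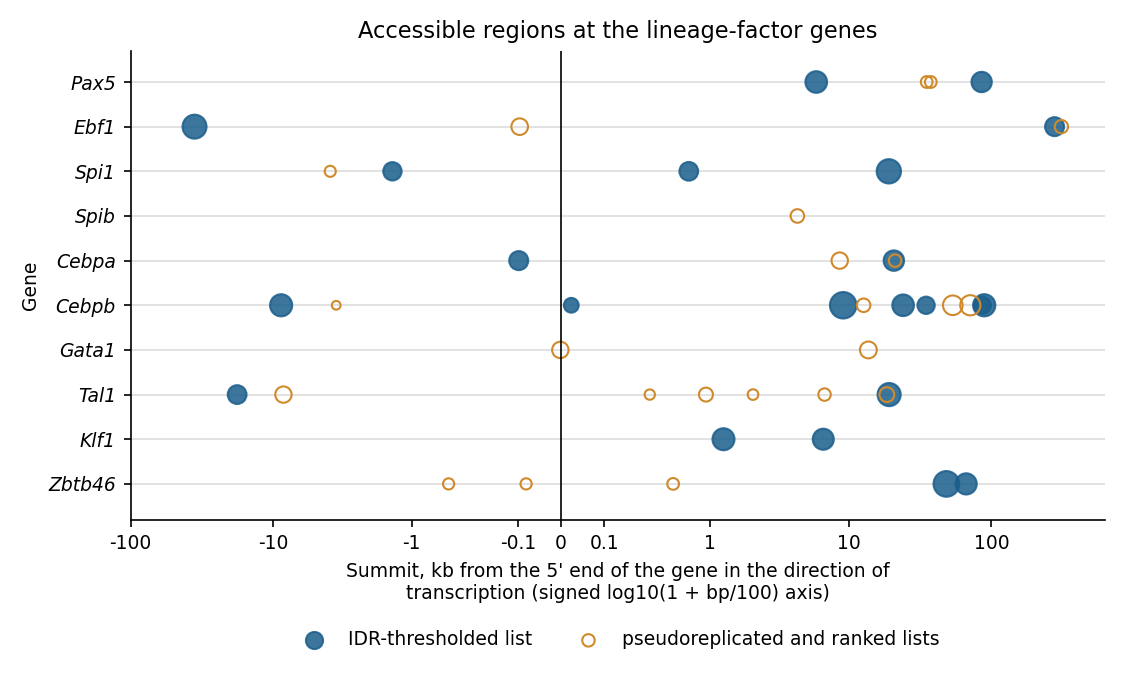
Positions of the summits of accessible regions at the 10 genes, in kb from the 5′ end of the gene record and in the direction of transcription, on a signed log10 axis. Each row is a gene and the area of a circle grows with the fold enrichment. Filled circles are the 22 regions of the main list and open circles 23 weaker regions of the pseudoreplicated and ranked lists. The filled circles nearest to the line at 0 belong to Cebpa and Cebpb, and the rows of Spib and Gata1 have none.

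Pax5, a paired-domain factor that keeps B cells committed, had 2 regions, both inside its gene body of 185731 bp (ENSMUSG00000014030, chr4:44524757-44710487, minus strand). A region of fold 15.4 and −log10 p 63.2 (chr4:44704359-44704842) lay in intron 1 of the longest transcript. Its summit was 563 bp upstream of an internal start of a shorter Pax5 transcript and 5918 bp inside the gene. No region of any of the 3 lists lay within 1000 bp of the 3 starts at the gene's 5′ end. The other Pax5 region, of fold 13.6 and −log10 p 65.9 (chr4:44624533-44625355), lay in intron 6 of 10 exons, 20717 bp downstream of the nearest start. The 101 bp around its summit are shown because they hold a RUNX word, TGTGGTT, in capitals (chr4:44624956-44625056, plus strand).
Pax5 intron 6: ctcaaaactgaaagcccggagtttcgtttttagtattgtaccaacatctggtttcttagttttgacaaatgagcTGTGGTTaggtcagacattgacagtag

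Ebf1, which acts with Pax5 to open B cell genes, had 2 regions, neither of them near its only start (ENSMUSG00000057098, chr11:44617317-45008091, plus strand). The stronger, of fold 18.9 and −log10 p 79.6 (chr11:44581210-44581730), lay 35741 bp upstream in intergenic DNA. The other, of fold 11.9 and −log10 p 38.5 (chr11:44892967-44893237), lay in intron 8, 275789 bp into the gene. The start of Ebf1 was covered in the pseudoreplicated and ranked lists and not in the main list, by a region of 9.10-fold whose IDR was 0.182. The upstream summit is shown for its 2 E-box words, CAGGTG and CAGCTG, and for a match to the consensus of CTCF, an insulator protein present in most cell types, between them, all in capitals (chr11:44581526-44581626, plus strand).
Ebf1 upstream: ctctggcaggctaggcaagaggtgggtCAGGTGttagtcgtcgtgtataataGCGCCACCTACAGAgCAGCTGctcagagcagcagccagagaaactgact

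Among the myeloid factors, Spi1 had 3 regions (ENSMUSG00000002111, chr2:91082390-91115756, plus strand). PU.1 is an ETS factor of myeloid and B cells whose gene is normally shut down as T cells commit. A region of 11.1-fold and −log10 p 80.8 lay 1396 bp upstream of the main start, and a region of 11.6-fold and −log10 p 90.8 lay 678 bp downstream of it in intron 1. These 2 regions flanked the start, and no list held a region that covered it. The third Spi1 region was the strongest, with a fold of 19.5 and −log10 p of 78.2 (chr2:91101382-91101749), in intron 2 and 4804 bp downstream of an internal start. The pseudoreplicated list added 1 weaker region at Spi1, 3959 bp upstream and with a fold of 4.03.

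The summits of the 3 Spi1 regions carried different words. The upstream summit (chr2:91080944-91081044) held an E-box and the PU.1-type word GAGGAAG, that is, a word that the Spi1 product itself can bind. The intron 1 summit (chr2:91083018-91083118) held a C/EBP word, TTGCNNAA on the minus strand, and the intron 2 summit (chr2:91101534-91101634) a CTCF consensus match, all shown in capitals on the plus strand.
Spi1 upstream: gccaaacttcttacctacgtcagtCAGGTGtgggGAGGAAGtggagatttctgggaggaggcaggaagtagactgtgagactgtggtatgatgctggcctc
Spi1 intron 1: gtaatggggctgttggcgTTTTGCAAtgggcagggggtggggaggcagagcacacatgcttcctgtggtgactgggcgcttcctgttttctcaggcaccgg
Spi1 intron 2: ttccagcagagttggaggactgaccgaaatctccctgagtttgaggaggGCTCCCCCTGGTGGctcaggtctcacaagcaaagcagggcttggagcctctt

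Spib, the closest relative of PU.1 and a factor of B cells and plasmacytoid dendritic cells, had no region in the main list (ENSMUSG00000008193, chr7:44525993-44532071, minus strand, 3 starts). In the pseudoreplicated list a single region of 6.07-fold and −log10 p 13.7 covered part of its last exon, which is untranslated there, and lay closest to a start of Mybpc2. Among the 10 genes, Spib alone was without a promoter region in any list.

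Cebpa, the main driver of granulocyte precursors, had an accessible start (ENSMUSG00000034957, chr7:35119293-35121928, plus strand). The region over it (chr7:35118479-35119675) was 1197 bp wide, with 4 summits, a fold of 11.9 and a −log10 p of 104. Its main summit lay 97 bp upstream of the start, and the fold was at percentile 30.2 of the promoter regions in the list. A start of the noncoding RNA Gm45091 lay within 1000 bp of it. A second region, of fold 13.7 and −log10 p 54.6 (chr7:35139717-35140334), lay 20805 bp downstream of the start. Its summit is shown for an interferon-response word, GAAANNGAA, here read on the minus strand, and an NFAT word, TGGAAA, also on the minus strand (chr7:35140058-35140158, printed on the plus strand).
Cebpa downstream: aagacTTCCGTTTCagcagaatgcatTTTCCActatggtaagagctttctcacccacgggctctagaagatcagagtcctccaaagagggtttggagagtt

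Cebpb, an inducible C/EBP factor of macrophages that is also used outside blood, had the most regions of the 10 genes, 7 (ENSMUSG00000056501, chr2:167688915-167690418, plus strand). As many or more were assigned to 3.68% of all genes. With regions assigned by gene 5′ ends only, Cebpb had 2 and Spi1 had 3. The region over its start (chr2:167688645-167690264) was the widest of the 22, at 1620 bp, and the lowest, at 7.19-fold, at percentile 8.998 of promoter regions. It covered most of this gene, which is a single exon, and had 5 summits. The summits at 18, 906 and 1209 bp from the start had nearly equal folds of 7.19, 7.09 and 7.12.

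The other 6 Cebpb regions lay in flanking DNA. A region 8829 bp upstream, within the record of the neighbouring gene Tmem189, had a fold of 16.1. The highest fold of all 22 regions, 23.1 with −log10 p 209 (chr2:167697854-167698306), was 9175 bp downstream of the start and at percentile 94.98 of intergenic regions. Further downstream, regions at 24166, 34995, 86568 and 89099 bp had folds of 15.4, 9.86, 9.61 and 16.3. The last of these had the largest −log10 p, 360, and lay within 1000 bp of a start of the noncoding RNA Gm14321. Only protein-coding starts were used to assign regions, so it counted for Cebpb although that noncoding start was closer. The summit 9175 bp downstream is shown for an E-box and an interferon-response word, both read on the minus strand (chr2:167698040-167698140, printed on the plus strand).
Cebpb downstream: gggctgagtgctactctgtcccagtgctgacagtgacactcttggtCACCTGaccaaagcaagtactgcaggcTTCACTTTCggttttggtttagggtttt

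In the erythroid group, Gata1 had no region in the main list (ENSMUSG00000031162, chrX:7959260-7978071, minus strand, 3 starts). This zinc-finger factor switches on the globin and heme genes. The pseudoreplicated list had a region of fold 8.85 over its most upstream start (chrX:7977774-7978292, IDR 0.105) and a region of fold 9.35 over an internal start (chrX:7964147-7964465, IDR 0.167). None of the 3 lists had a region at the start between them. Gata1 lies on the X chromosome, of which male cells carry a single copy. Regions on X in the main list had a median fold of 14.6, against 13.1 on the autosomes, and 35.1% of X-linked genes had a promoter region, against 50.8% of autosomal genes; the part of copy number in the Gata1 values was not tested.

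Tal1, a bHLH factor of blood stem cells and red cell precursors, had 2 regions, both outside its gene body (ENSMUSG00000028717, chr4:115056426-115071755, plus strand). A region of fold 11.6 and −log10 p 37.3 (chr4:115038309-115038584) lay 17990 bp upstream of the nearest start, in an exon of the neighbouring gene Stil. A stronger region, of fold 17.6 and −log10 p 153 (chr4:115075322-115076070), lay 19286 bp downstream of the gene's 5′ end and was closer to the start of Pdzk1ip1. Stem-cell enhancers are known both upstream and downstream of Tal1; whether these regions coincide with them was not tested. The pseudoreplicated and ranked lists added the same 6 regions at Tal1, with folds of 3.52 to 8.78, and 3 of them lay in promoter windows. The best of those by fold covered a start, at 6.40-fold and an IDR of 0.0986. The upstream summit (chr4:115038386-115038486) is shown for its CTCF consensus match and the downstream summit (chr4:115075662-115075762) for its PU.1-type word, both on the plus strand.
Tal1 upstream: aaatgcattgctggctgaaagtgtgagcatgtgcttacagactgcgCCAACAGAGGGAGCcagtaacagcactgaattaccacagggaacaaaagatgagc
Tal1 downstream: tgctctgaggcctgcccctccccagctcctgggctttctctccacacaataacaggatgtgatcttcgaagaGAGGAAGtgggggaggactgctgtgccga

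Klf1, which turns on adult beta-globin, had 2 regions and a bare start (ENSMUSG00000054191, chr8:84901928-84905291, plus strand). The first, of fold 16.0 and −log10 p 91.2 (chr8:84902854-84903580), had its summit in coding exon 2 of 3, 1258 bp into the gene. Klf1 was counted among genes with a promoter region only because the edge of this region was 926 bp from the start. The second, of fold 14.6 and −log10 p 183 (chr8:84908249-84908983), was the promoter region of the neighbouring gene Dnase2a, with its summit 4 bp from that gene's start. The pseudoreplicated list held the same 2 regions, and no list had a region over the Klf1 start. The exon summit is shown for its CTCF consensus match (chr8:84903136-84903236, plus strand).
Klf1 exon 2: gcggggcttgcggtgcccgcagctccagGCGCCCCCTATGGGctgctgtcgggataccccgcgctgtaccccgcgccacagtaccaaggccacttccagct

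Zbtb46, a zinc-finger factor that marks classical dendritic cells, had 2 regions deep in its gene (ENSMUSG00000027583, chr2:181387762-181459426, minus strand). A region of fold 21.7 and −log10 p 221 (chr2:181410684-181411479) lay 13466 bp downstream of an internal start, in intron 3 of the longest transcript and in an exon of another. Its fold was the second highest of the 22 regions. The other, of fold 14.8 and −log10 p 67.7 (chr2:181392499-181393114), lay in intron 4 and was closer to the start of Lime1, 10910 bp away. Around the 5′ starts the pseudoreplicated list held 3 regions with folds of 4.13 to 4.54, each with an IDR of 0.357. The intron 4 summit is shown for its CTCF consensus match (chr2:181392732-181392832, plus strand).
Zbtb46 intron 4: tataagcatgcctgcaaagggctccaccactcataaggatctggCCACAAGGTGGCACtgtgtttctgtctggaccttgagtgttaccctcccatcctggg

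The median fold of the 22 regions was 14.7 (range 7.19 to 23.1), against 13.1 for all 29415 regions, and 14 of them exceeded that list median. Of the 22, 5 regions, at Ebf1, Spi1, Cebpb, Tal1 and Zbtb46, exceeded the list's 75th percentile of 17.5. All 5 lay outside promoters. The 17 regions outside the promoter class had a median fold of 15.4, where the list's medians were 11.7 in exons, 11.4 in introns and 12.6 between genes. The median −log10 p of all 22 was 82.8, against 92.5 for the list. Median width was 646 bp (range 271 to 1620 bp), against 659 bp, and 15 of 22 had several summits (68.2%), against 55.9%.

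**Figure D2:**
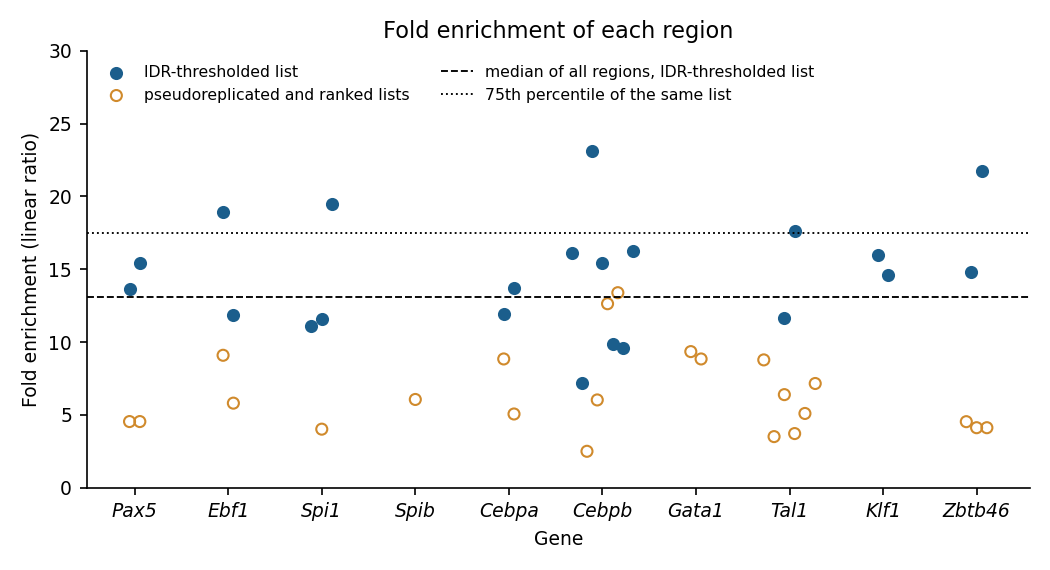
Fold enrichment (linear ratio, y axis) of each region at the 10 genes (x axis). Filled points are regions of the main list and open points weaker regions of the pseudoreplicated and ranked lists; the dashed line is the median of all regions of the main list, 13.1, and the dotted line its 75th percentile, 17.5. Open points lie at or below 13.4, and Spib and Gata1 have open points only.

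The lists differed in the weaker regions they held. All 22 regions were also pseudoreplicated peaks with identical bounds, and the longer list added 23, for 45 at all 10 genes. The added regions had a median fold of 5.81 (range 2.51 to 13.4) and a median −log10 p of 13.7, and 9 of them lay at promoters of Ebf1, Gata1, Tal1 or Zbtb46. With them, 9 of 10 lineage factors had a promoter region, against 55.3% of all genes in that list. A start was covered at 6 of 10 (Ebf1, Cebpa, Cebpb, Gata1, Tal1 and Zbtb46), against 51.7% of all genes. At the cut between the lists, the Cebpb region 34995 bp downstream was the last inside, with an IDR of 0.0224, and the Cebpb region 53770 bp downstream, of 12.6-fold, was the first outside, with an IDR of 0.0799.

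The ranked list gives a −log10 p for each region in both sets of reads that were ranked. For all 22 regions the values of the sets were within 2-fold of each other, as for 98.7% of the list. The median ratio of the larger to the smaller was 1.30 at the lineage factors and 1.18 over the list. The largest ratio, 1.90, was at the Spi1 intron 1 region, with 31.0 in the first set and 59.0 in the second. Of the 23 weaker regions, 14 were within 2-fold and 9 were not, with a median ratio of 1.88 and a largest of 4.48. The main list was cut on IDR, which compares peak ranks between sets of reads. Closer values inside it follow in part from that cut and are not separate evidence of reproducibility. What the sets were, libraries or random parts of the pool, is not given in the sources used here.

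**Figure D3:**
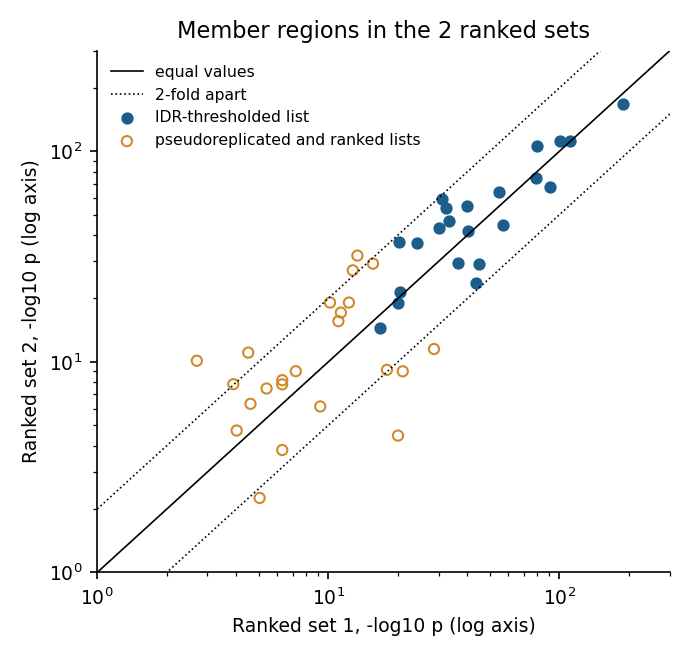
The −log10 p of each region at the 10 genes in the first ranked set (x axis) and in the second (y axis), both on log axes. The solid line marks equal values and the dotted lines a 2-fold gap. All 22 regions of the main list (filled) lie between the dotted lines, and 9 of the 23 weaker regions of the longer lists (open) lie outside them. The IDR cut that made the main list itself favours regions with like ranks in both sets.

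The genes also differed in the sequence of their starts, which the choice of genes did not use. CpG-rich promoters are commonly open in many cell types, so each gene was placed by its ratio of observed to expected CpG in the 500 bp on either side of its most upstream start. Each was then set beside all genes of the same decile. Cebpb and Cebpa, with ratios of 1.01 and 0.889, were in the highest decile, where 85.1% of genes had a covered start, as both did. Zbtb46 (0.874) and Tal1 (0.804) were in deciles 9 and 8, where 84.5% and 80.0% of genes had a promoter region, and neither had it in the main list. Pax5 (0.679) was in decile 7, where 75.3% of genes had a promoter region and 73.0% a covered start. It had a promoter region, near an internal start whose own ratio was 0.851, and none of its starts was covered.

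At the other end, Klf1 and Spib had ratios of 0.0783 and 0.0870, in the lowest decile, where 5.54% of genes had a promoter region. Spi1 (0.176) was in decile 2, with 10.02%, Gata1 (0.306) in decile 4, with 26.0%, and Ebf1 (0.492) in decile 5, with 45.6%. Of these 5 genes, Klf1 and Spi1 had a promoter region in the main list, and Spib, Gata1 and Ebf1 had none. None of the 5 had a covered start in that list. Covered starts were found at 4.35%, 8.60%, 21.8% and 41.9% of all genes in deciles 1, 2, 4 and 5. In deciles 7 to 10, where the covered shares were 73.0% to 85.1%, 3 of the 5 lineage factors had no covered start in the main list. In the pseudoreplicated list Tal1 and Zbtb46 had a promoter region and a covered start, as had Gata1 and Ebf1. Pax5, Spib, Spi1 and Klf1 had no covered start there either. In that list 85.6% of all genes in decile 8 and 89.2% in decile 9 had a promoter region.

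**Figure D4:**
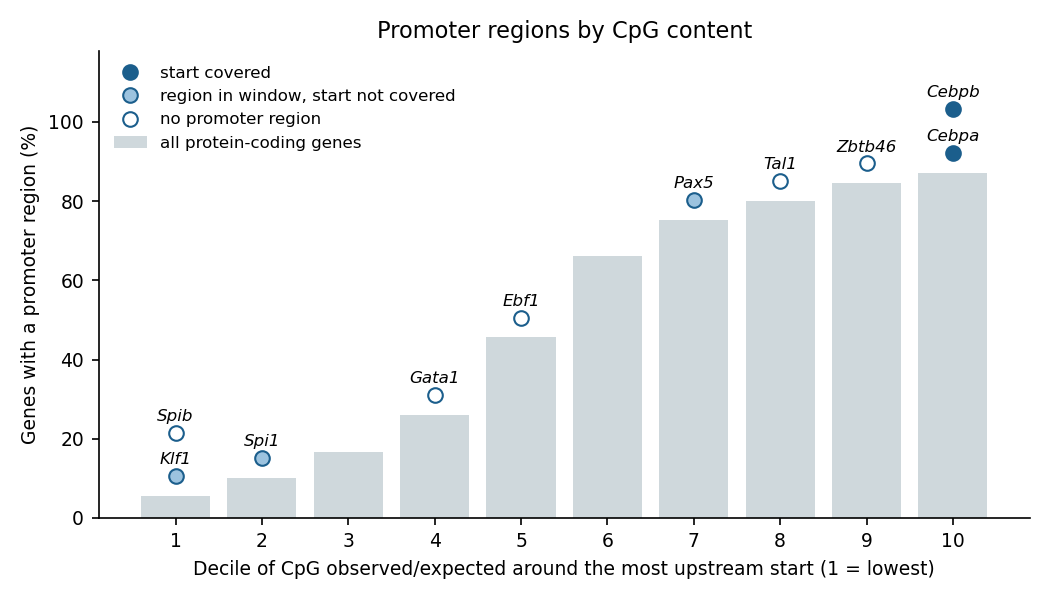
Share of all protein-coding genes with a promoter region in the main list (bars, %), by decile of the CpG observed over expected ratio around the most upstream start. Circles place the 10 lineage factors in their decile, and their height has no meaning. Dark circles are genes with a covered start, pale circles those with a region in the window only, and white circles those with none; Tal1 and Zbtb46 are white above bars of 80.0% and 84.5%.

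Promoter sequences from RefSeq on GRCm38.p6 were matched for 9 of the 10 genes. The promoters of Cebpb (chr2:167688665-167688964, plus strand) and Cebpa (chr7:35119043-35119342, plus strand), whose starts were covered, are shown beside those of Tal1 (chr4:115056176-115056475, plus strand) and Klf1 (chr8:84901732-84902031, plus strand), which overlapped no region of the main list. Each runs from 250 bases before the start to 50 after it, and every CG pair is in capitals. There are 50 at Cebpb, 29 at Cebpa, 11 at Tal1 and 3 at Klf1. A second RefSeq promoter of Tal1, not printed, has 22.
Cebpb promoter: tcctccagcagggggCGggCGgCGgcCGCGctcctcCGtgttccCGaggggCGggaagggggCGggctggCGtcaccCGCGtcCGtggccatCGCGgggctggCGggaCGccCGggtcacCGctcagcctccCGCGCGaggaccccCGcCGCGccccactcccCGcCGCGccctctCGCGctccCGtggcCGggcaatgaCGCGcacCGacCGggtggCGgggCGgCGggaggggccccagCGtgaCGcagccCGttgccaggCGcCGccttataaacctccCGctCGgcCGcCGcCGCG
Cebpa promoter: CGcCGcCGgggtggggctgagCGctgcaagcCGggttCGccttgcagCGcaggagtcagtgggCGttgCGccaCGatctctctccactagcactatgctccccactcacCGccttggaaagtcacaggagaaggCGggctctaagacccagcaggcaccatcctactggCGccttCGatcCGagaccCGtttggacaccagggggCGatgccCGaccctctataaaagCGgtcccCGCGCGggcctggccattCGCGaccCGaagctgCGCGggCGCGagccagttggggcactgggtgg
Tal1 promoter: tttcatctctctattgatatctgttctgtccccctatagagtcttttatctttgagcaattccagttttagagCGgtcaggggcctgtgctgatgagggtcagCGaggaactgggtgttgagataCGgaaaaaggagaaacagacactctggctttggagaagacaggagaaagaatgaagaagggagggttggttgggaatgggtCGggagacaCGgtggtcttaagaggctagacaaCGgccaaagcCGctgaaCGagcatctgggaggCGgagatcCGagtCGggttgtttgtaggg
Klf1 promoter: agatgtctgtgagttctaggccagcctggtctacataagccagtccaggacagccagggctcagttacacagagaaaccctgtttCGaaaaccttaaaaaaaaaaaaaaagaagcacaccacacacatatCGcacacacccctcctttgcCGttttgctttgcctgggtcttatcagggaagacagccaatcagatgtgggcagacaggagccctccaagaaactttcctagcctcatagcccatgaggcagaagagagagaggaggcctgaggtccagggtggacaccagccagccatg

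In all, 16 short words of blood-cell factors were searched on both strands within 50 bp of each summit, which is a description of letters and not of binding. At the 22 regions the E-box words CAGGTG or CAGCTG occurred in 4 (18.2%), against 13.7% of all regions. The PU.1-type word GAGGAAG occurred in 2 (9.09%), at Spi1 and Tal1, against 7.82%, and it overlaps the general ETS core. The interferon-response word GAAANNGAA occurred in 2 (9.09%), at Cebpa and Cebpb, against 4.88%. The C/EBP word occurred in 1, at Spi1, against 3.11% of all regions. The RUNX word occurred in 1 (4.55%), at Pax5, against 6.35%, and the NFAT word in 2 (9.09%), both at Cebpa, against 7.19%. The ETS word CCGGAAG and the TCF word CTTTGA occurred in 1 each, against 6.51% and 7.17%. A short CTCF word, AGGGGGC, occurred in 2 (9.09%), against 5.64%.

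No match was found in these windows, at any of the 22 regions, for AGATAA of GATA factors (3.32% of all regions), CCCNNGGGA of Ebf1 (1.59%) or CACACCC of KLF factors (3.44%). The AP-1 word TGANTCA, found at 6.35% of all regions, was also without a match within 50 bp. So were the words of NF-kB (1.63%), STAT (2.78%) and forkhead factors (1.48%), which had no match within 100 bp either. Within 100 bp the matches numbered 1 for the GATA word (7.52% of all regions), 2 for the Ebf1 word (3.40%), 0 for the KLF word (6.42%) and 3 for the AP-1 word (9.81%). A longer CTCF consensus of 14 positions, with up to 2 mismatches, was added after the summit sequences had been seen. It matched at 5 of 22 regions (22.7%), at Ebf1, Spi1, Tal1, Klf1 and Zbtb46, against 18.5% of all regions. All 5 were outside the promoter class, where it matched at 5 of 17, against 23.4% of all regions outside that class.

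Base composition was close to that of the list over all classes together, but GC content was higher outside the promoter class. The 22 regions had a median GC content of 53.6% (range 44.2% to 73.6%), against 51.2% for all regions. Outside the promoter class the median was 53.1% for the 17 regions at lineage factors and 47.6% for all regions.

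The partners and targets of these factors were counted in lists made by role, with earlier results of these data known and with the regions of the main list only. A place in a list does not mean that a gene acts only in that cell type. Irf8 was in the B cell, myeloid and dendritic cell partner lists alike. Over all protein-coding genes 49.7% had a promoter region and the median was 1 region. Counts near these values do not set a list apart. In the B cell lists, the partner factors had a promoter region at 6 of 7 genes and a median of 7 regions, led by Bach2 with 32, Ikzf1 with 13 and Foxo1 with 10. These 3 also act in T cells and were in the list of T cell factors too. The B cell targets had a promoter region at 1 of 11, Cr2, and a median of 1 region. Blnk, Ms4a1, Igll1 and Rag1 were among those with none, while Cd79a and Blk, a B cell receptor chain and a kinase, had 3 each away from their promoters.

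The myeloid partner factors had a promoter region at 5 of 8 genes and a median of 2.5 regions. Gfi1 had 8, Irf8 6 and Klf4 5, while Cebpd and Spic, relatives of Cebpb and Spib, had none. The myeloid targets had a promoter region at 1 of 9, Csf2ra, and a median of 0. Csf1r, Itgam, Cd14, Lyz2 and Elane, which include receptors and granule enzymes under PU.1 and C/EBP control, had none. Fcgr1 had 2 regions, and Csf3r and Mpo had 1 each, like Csf2ra.

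The erythroid partner factors had a promoter region at 3 of 8 genes and a median of 1.5. Ldb1 and Myb had 5 regions each and Lyl1, the closest relative of Tal1, had 3, while Gata2, Lmo2 and Gfi1b had none. The erythroid targets had it at 3 of 7 with a median of 2, namely at Hemgn and Tfrc, with 3 regions each, and at Epor with 2. Slc4a1, a membrane protein of red cells, was among those with none. The dendritic cell partner factors had it at 4 of 5 with a median of 6, led by Irf4 with 14, and the dendritic cell targets at 1 of 7, Ccr7 with 5 regions; Itgax, Clec9a and Siglech had none.

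Factors of T cells themselves were counted in the same way. Their list had a promoter region at 14 of 15 genes, all but Tcf7, against 49.7% of all genes. A start was covered at 12 of 15, not at Tcf7, Bcl11b or Foxp3, against 47.3% of all genes. The median of the list was 13 regions, with Bach2 at 32, Tox at 20 and Runx1 at 19. The rule takes in the whole gene body, so counts can rise with gene length, which was not matched between lists. The lineage factors ranged from 1504 bp (Cebpb) to 390775 bp (Ebf1). In the upper 50% of regions by fold, 2 of the 10 lineage factors had a promoter region. Among the 15 T cell factors the number was also 2. The share of all genes at that cut is not given here, so neither count can be called high or low. Cebpb had 7 regions in the main list and the other lineage factors 0 to 3, but with a flank of 10 kb Zbtb46 had 5 and Klf1 4. No test was made between lists, because neither genes nor technical replicates stand for biological replicates.

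**Figure D5:**
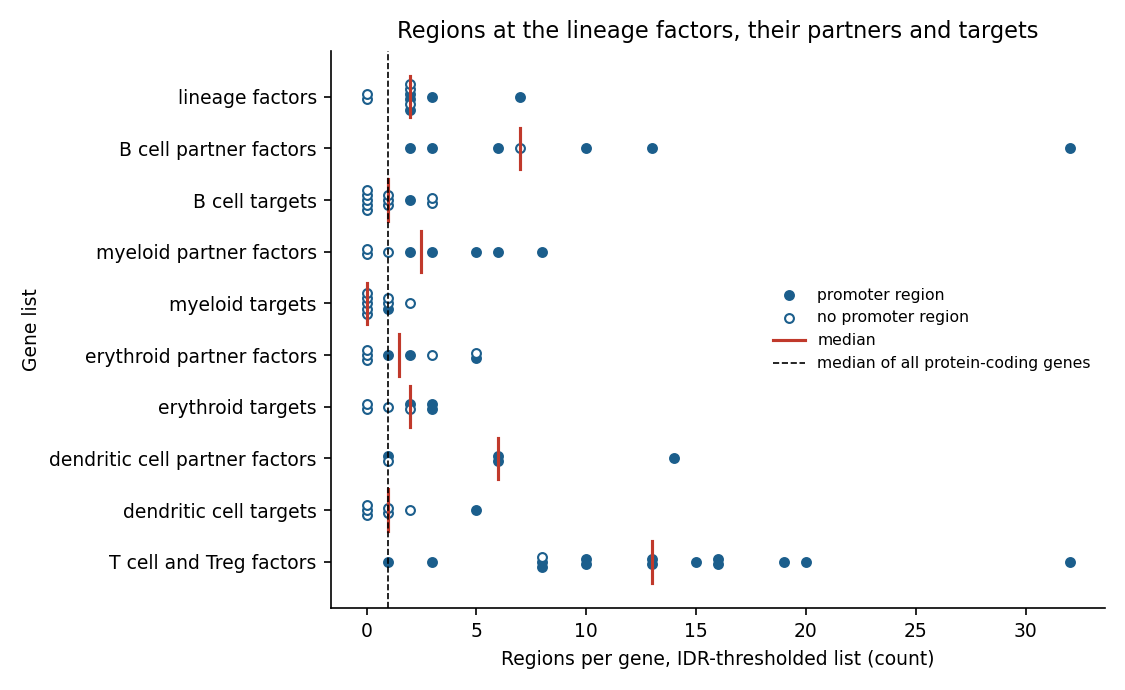
Regions per gene in the main list (x axis, count) for the 10 lineage factors, their partner and target lists and the list of T cell factors (rows); each point is a gene. Filled points have a promoter region and open points have none, red bars are list medians and the dashed line is the median of all protein-coding genes, 1. The lineage factors lie at 0 to 7, with a median of 2, and the T cell factors at 1 to 32, with a median of 13.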

How the data were processed

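Per the text deposited with the samples, the authors made all 3 peak lists (mm10) out of 1 alignment: pseudoreplicated, IDR-thresholded and ranked. The same lists serve both libraries, so they were taken to pool them. The deposited columns hold a score up to 1000, a fold enrichment (linear ratio), a −log10 p-value and q-value and, in the ranked list, the −log10 of the IDR and the −log10 p of both ranked sets, as the authors' tools wrote them. The sources used here do not give the aligner, caller, read filters, IDR threshold or background of the fold, and depth is unknown.

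Overlapping or touching peaks were merged, and each region took the fold and summit of its highest peak. A promoter class means a summit within 1000 bp of a protein-coding start. Genes came from GENCODE M21 on GRCm38.p6, and 0 regions of the 21 chromosomes ran past a chromosome end. Motifs were searched on both strands of the genome. All 10 genes are given in full, with neighbours whose start is nearest to or within 1000 bp of a region, and in each list the up to 3 genes with most regions and those with none, except some that are counted in their list and not named here. The genes, lists and motifs were chosen with earlier results of these data known. Intervals cover counting error only. Alternatives were the other lists, stricter cuts on fold or score, single summits, other flanks and windows, and gene 5′ ends. Merging and the assignment of regions to starts were tested on simulated data against a direct count. The tools were Python 3.11.15, numpy 2.4.6, pandas 2.3.3, scipy 1.17.1 and matplotlib 3.10.9.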

Additional observations from a re-analysis of the deposited data

How the results depend on the processing

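The main list gave 22 regions at the 10 lineage factors. The pseudoreplicated list gave 45, the ranked list 46, single summits 45, the upper 50% of regions by fold 14 and regions with a score of 1000 only 12. The number of genes with a promoter region was 5 in the main list and 9 in both the pseudoreplicated and the ranked list. It was 2 in the upper 50% (Pax5 and Klf1) and 2 with a score of 1000 (Cebpa and Klf1). A window of 500 bp gave 3. The shares of all genes at these settings are not given here. A window of 0 bp, which was added after the data had been seen, gave 2. Genes with no region numbered 2 in the main list and 0 in both longer lists. The median fold was 14.7 in the main list, 9.61 in the pseudoreplicated list, 9.48 in the ranked list and 7.19 over single summits, which include the lesser summits of each region by construction. Regions assigned by the nearest start numbered 18 in the main list, 38 pseudoreplicated, 39 ranked, 38 as single summits, 11 in the upper 50%, 10 with a score of 1000 and 11 with gene 5′ ends only. Of 53 such alternative values, 31 stayed within 1.5 times the main count, or within the SD of the 22 folds for the median fold. Of the values per gene, gene list or motif, 61 moved further than that and 173 did not. Some of these values could not move, so the tallies do not measure robustness. The promoter call uses neither the flank nor the distance limit, and assignment by the nearest start does not use the flank. With a flank of 10 kb Klf1 had 4 regions and Zbtb46 5, with none Tal1 and Klf1 had 1 each, and with gene 5′ ends only Cebpb had 2. No paired analysis was possible because the lists pool both libraries, and for the same reason neither library could be left out. Depth is unknown, so a start without a region is not shown to be closed.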
